A study of Mus musculus with 99 samples.

Results

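PCGF2 occupancy was mapped by ChIP-seq in 4 mouse embryonic stem cell (ESC) populations, which are 4 of the 99 samples of the series: Parental −OHT, Parental +OHT, RING1B WT +OHT and RING1B I53S +OHT. The members are every peak that the authors called in these 4 libraries, namely 5186 peaks in Parental −OHT, 89 in Parental +OHT, 3773 in RING1B WT +OHT and 696 in RING1B I53S +OHT. The 74 peak lists of the series that were read hold 408060 peaks in all. Each condition has 1 PCGF2 library, so differences between the lists have no replicate check, and no p-value is given for them. The Parental line is a ROSA26::creERT2 ESC line that lacks Ring1a and carries floxed Ring1b alleles (Ring1a-/-; Ring1b fl/fl). Treatment with 0.5 µM 4-hydroxytamoxifen (OHT) for 72 h activates the Cre recombinase and deletes Ring1b, while −OHT cells received ethanol. RING1B WT and RING1B I53S are stable subclones of the same cells that express 2xFLAG-HA-tagged RING1B from a pCAG vector under puromycin selection, either the wild type or a form with isoleucine 53 changed to serine. All 3 lines lack RING1A in every condition, and in the rescue lines with OHT the transgene is the source of RING1B. The series holds no PCGF2 ChIP of the rescue lines without OHT, so the level before Ring1b deletion was compared only through Parental −OHT. The question posed by the design is how far this subunit stays on chromatin when RING1B is absent and when RING1B is present without its E3 ligase activity.

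PCGF2 (also called MEL18) is a RING-finger protein that pairs with RING1A or RING1B to form canonical PRC1. In canonical PRC1 a CBX subunit such as CBX7 carries a chromodomain that reads H3K27me3, the mark of PRC2, and a PHC subunit allows complexes to cluster. Variant PRC1 holds other PCGF proteins such as PCGF6 and the subunit RYBP in place of CBX and PHC, and deposits most H2AK119ub1 in ESCs. In ESCs these complexes occupy CpG islands at the promoters of developmental regulators that are kept silent.

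The sequences on which the peaks lay were rich in CpG dinucleotides. 5 windows of 200 bases are shown, the stretch with the most CpG outside exons within each peak, to show the sequence at peaks with contrasting fates in the 4 libraries (GRCm38, the build also called mm10, plus strand, CpG in capitals). The Tlx2 window lies in the peak with the highest score in RING1B I53S cells, in intergenic sequence 290 bp from the nearest Tlx2 start site. The Neurod2 window lies in an intron of Neurod2 within another of the 5 highest RING1B I53S peaks. The Hoxb5 window, annotated as an intron of the antisense gene Hoxb5os, lies in the widest PCGF2 peak of Parental cells. The Hs3st3b1 window is intronic and lies in the Parental peak with the highest score, and the Pik3c2b window is intronic and lies in the highest peak that was called in none of the +OHT libraries.
Tlx2, chr6:83070483-83070682, 22 CpG: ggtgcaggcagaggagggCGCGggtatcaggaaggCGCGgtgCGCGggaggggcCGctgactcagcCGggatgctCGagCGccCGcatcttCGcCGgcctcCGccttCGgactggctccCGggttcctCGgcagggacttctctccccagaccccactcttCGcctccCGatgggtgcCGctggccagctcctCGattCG
Neurod2, chr11:98328664-98328863, 21 CpG: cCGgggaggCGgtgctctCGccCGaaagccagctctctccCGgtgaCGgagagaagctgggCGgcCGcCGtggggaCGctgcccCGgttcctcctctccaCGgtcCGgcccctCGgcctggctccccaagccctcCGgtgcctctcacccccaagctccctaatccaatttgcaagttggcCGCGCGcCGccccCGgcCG
Hoxb5, chr11:96303136-96303335, 17 CpG: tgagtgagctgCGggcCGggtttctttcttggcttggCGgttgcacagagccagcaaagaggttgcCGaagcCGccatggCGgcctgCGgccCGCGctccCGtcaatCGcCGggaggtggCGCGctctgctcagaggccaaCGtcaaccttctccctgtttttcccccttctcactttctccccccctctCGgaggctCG
Hs3st3b1, chr11:63920521-63920720, 25 CpG: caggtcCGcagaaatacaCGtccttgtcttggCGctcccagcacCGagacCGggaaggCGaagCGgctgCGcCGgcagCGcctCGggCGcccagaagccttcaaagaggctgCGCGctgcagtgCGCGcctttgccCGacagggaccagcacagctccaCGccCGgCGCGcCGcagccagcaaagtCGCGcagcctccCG
Pik3c2b, chr1:133046425-133046624, 28 CpG: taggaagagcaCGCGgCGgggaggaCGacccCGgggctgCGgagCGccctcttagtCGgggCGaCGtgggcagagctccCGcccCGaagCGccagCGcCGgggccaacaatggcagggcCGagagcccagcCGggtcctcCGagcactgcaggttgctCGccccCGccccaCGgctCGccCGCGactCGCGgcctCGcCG
These windows held 17 to 28 CpG, and as each was picked for its CpG number, the counts do not describe whole peaks. Not all peaks were like this, since the corresponding stretch of the Hoxb2 peak held 10 CpG. That of the Plxna2 peak held 2, the Plxna2 peak being, like that of Pik3c2b, called in none of the +OHT libraries. Over the central 300 bp of the 5184 Parental −OHT peaks outside the mitochondrial chromosome, the median GC content was 62.7% and the median density 6.33 CpG per 100 bp. The 32851 RefSeq promoters of the same length had medians of 52.7% and 2.33 CpG per 100 bp.

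Parental −OHT cells held 5186 PCGF2 peaks that covered 10.98 Mb. Their median width was 1627.5 bp and their median score 44.3, where the score is the −log10 of the MACS2 p-value and was at least 10 in every list. After OHT the Parental line had 89 peaks over 0.0778 Mb, with a median width of 528 bp and a median score of 15.3. RING1B WT +OHT cells had 3773 peaks over 7.64 Mb, with a median width of 1561 bp and a median score of 35.8. In RING1B I53S +OHT cells 696 peaks covered 0.934 Mb, with a median width of 1071 bp and a median score of 16.1. The order by number, covered length, median width and median score was thus the same, with Parental −OHT highest, then RING1B WT, RING1B I53S and Parental +OHT. Peaks of at least 3 kb made up 17.7% of the Parental −OHT list and 16.2% of the RING1B WT list, against 6.32% of the RING1B I53S list and 3.37% of the Parental +OHT list. Sequencing depth cannot be read from peak lists and is unknown here, and both the number of peaks and their scores move with it. The paper reports that PCGF2 protein was destabilized when endogenous RING1B was lost, and that RING1B WT and I53S restored it similarly. The part of protein level in the Parental +OHT list was not tested.

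**Figure D1:**
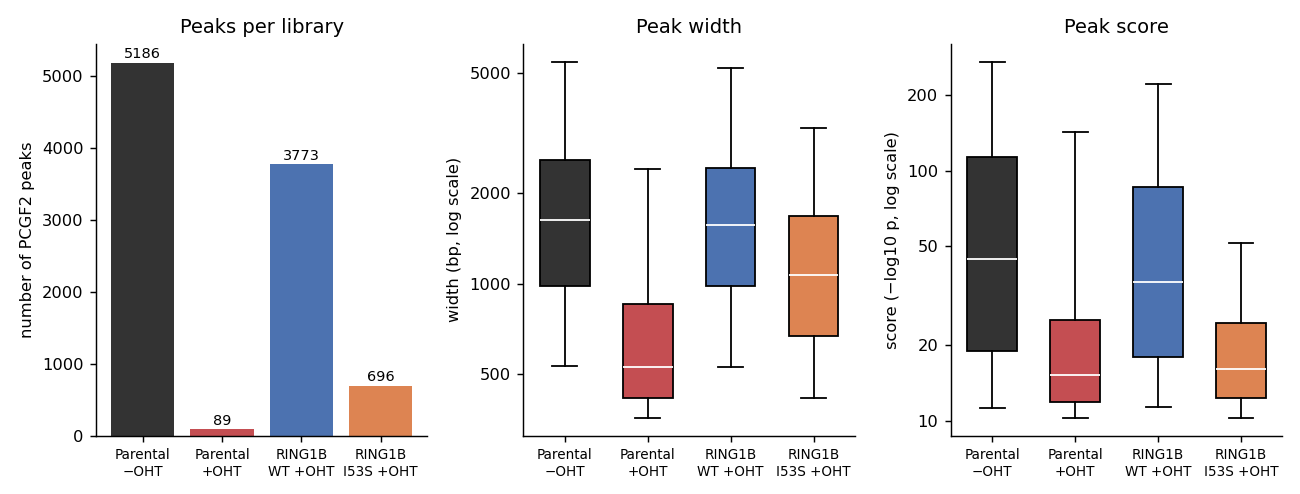
PCGF2 peaks in the 4 libraries: the number of peaks (left, bars from 0), peak width in bp (middle, log axis) and peak score as −log10 p (right, log axis). Boxes span the quartiles with the median as a white line and whiskers reach the 5th and 95th percentiles over peaks, so they show the spread between loci and not between replicates. The 5186 peaks of Parental −OHT stand beside the 89 of Parental +OHT.

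Of the Parental −OHT peaks, 41 (0.791%, 95% Wilson interval 0.583 to 1.07) were overlapped by a PCGF2 peak in Parental +OHT, 3549 (68.4%, 67.2 to 69.7) in RING1B WT +OHT and 521 (10.0%, 9.26 to 10.9) in RING1B I53S +OHT. These intervals cover counting over loci only. The rescue lines gained few loci outside the Parental set. Of the RING1B WT peaks 98.7% lay on a Parental −OHT peak, and of the RING1B I53S peaks 88.9%. Loci present in both rescue lines numbered 510 and had a median Parental width of 4164.5 bp and a median Parental score of 240. The 3039 loci held in RING1B WT and not in RING1B I53S had medians of 1947 bp and 66.1, and the 1626 held in neither had medians of 863 bp and 15.5. Only 11 loci were held in RING1B I53S and not in RING1B WT, and their median width was 421 bp. Of these 11 loci 7 also had a peak in Parental +OHT, where Ring1b was deleted, as had 26 of the 510.

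The share of loci found again was highest for the widest Parental peaks in both rescue lines. Among peaks under 800 bp, 15.4% were held in RING1B WT and 2.88% in RING1B I53S. Among those of 800 to 1500 bp the RING1B WT share was higher, at 50.6%, and the RING1B I53S share lower, at 0.712%. Among those of 1.5 to 3 kb the shares were 91.5% and 5.61%, and among those of 3 to 5 kb 98.5% and 29.5%. All 301 peaks of at least 5 kb were held in RING1B WT, and 65.8% of them (60.3 to 70.9) in RING1B I53S. By score, 16.5% of the peaks with scores of 10 to 20 and 99.9% of those with 100 to 200 were held in RING1B WT, against 1.36% and 13.6% in RING1B I53S. At scores of at least 200 the RING1B I53S share was 57.3% of 602 peaks. In Parental +OHT the share stayed between 0.212% and 2.76% in every width class. Its highest value, 2.76%, was that of peaks under 800 bp, near the 2.88% of RING1B I53S in that class. Counting only overlaps of at least 50% of the Parental peak, the share was 62.4% in RING1B WT and 2.39% in RING1B I53S.

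**Figure D2:**
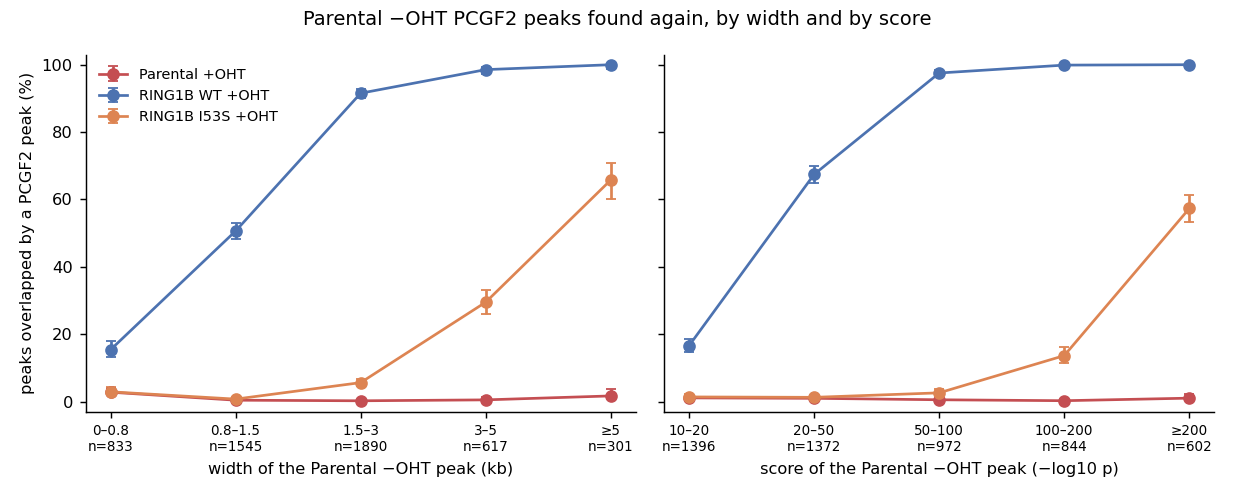
Share of Parental −OHT PCGF2 peaks overlapped by a PCGF2 peak (vertical axis, percent) in Parental +OHT, RING1B WT +OHT and RING1B I53S +OHT, by Parental width in kb (left) and by Parental score as −log10 p (right), with 95% Wilson intervals as error bars and n the number of peaks in a class. The RING1B WT curve reaches 91.5% at 1.5 to 3 kb, where the RING1B I53S curve is at 5.61%.

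Where a peak was held in RING1B I53S, it was also narrower and weaker. At the 521 shared loci the RING1B I53S peaks covered a median of 33.1% of the Parental peak, and the median score was 17.0 against 239 in Parental −OHT. In 14.8% of them the Parental peak was broken into at least 2 pieces. At the 3549 loci shared with RING1B WT the median coverage was 79.8%, and the median score was 37.9 against 77.9. A score above the Parental −OHT one was seen at 28 of the 521 loci in RING1B I53S and at 177 of the 3549 in RING1B WT. In Parental +OHT it was seen at 27 of the 41 shared loci.

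The widest Parental peak spanned Hoxb5 to Hoxb8, homeobox genes that pattern the body axis, over 30300 bp (chr11:96276777-96307076). Its score was 422 in Parental −OHT and 422 in RING1B WT, where 3 peaks covered 29555 bp. In RING1B I53S 8 peaks covered 13581 bp of it with a top score of 45.2, and in Parental +OHT no peak was called. The next widest peak, 26537 bp long, covered Cbx8 (chr11:119033834-119060370), which encodes a CBX subunit of canonical PRC1 itself. It held a score of 415 in Parental −OHT, 271 in RING1B WT and 27.6 in RING1B I53S, where 5 peaks covered 6340 bp, and none in Parental +OHT. The other 8 of the 10 widest peaks lay over Six3, Pax2, Lmx1b, Lhx5, Tbx2, Ebf3, Skor1 and Pax7, which encode regulators of development. Their Parental widths were 14668 to 19426 bp. All 10 were called in RING1B WT with scores of 190 to 422 and in RING1B I53S with scores of 12.6 to 81.8, and none in Parental +OHT. The highest of these RING1B I53S scores, 81.8, was that of Pax7, a regulator of muscle and neural crest.

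Among the 10 Parental peaks with the highest scores were those at Hs3st3b1 (656), Sox9 (640), Plxnd1 (619), Otx1 (611), Fezf1 (605), Sost (598), Fzd2 (577), Neurod2 (576) and Foxd4 (571). Sox9 directs cartilage and gonad development, Otx1 and Fezf1 forebrain development, and Sost and Fzd2 belong to Wnt signalling. All 10 were found again in RING1B WT, with scores of 248 to 659, and in RING1B I53S, with scores of 12.7 to 212. The losses differed widely between these loci. Otx1 kept a score of 212 in RING1B I53S beside 627 in RING1B WT, and Neurod2, a neuronal bHLH factor, kept 134 beside 659. Fzd2, a Wnt receptor, had 12.7 beside 248, and Sost 13.6 beside 398. MACS2 scores do not grow in proportion to signal, so these values order loci within a list and do not give amounts of PCGF2.

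Some very wide loci had no peak in RING1B I53S. Among the widest loci held in RING1B WT with no RING1B I53S peak over their whole length were 5 chosen after the values were seen. They lay over Mnx1 (13482 bp), Hoxa2 (12746 bp), Zic4 (11570 bp), Hoxc9 (11298 bp) and Hoxb13 (10220 bp). The promoters of Zic4 also held another Parental peak, on which RING1B I53S cells had peaks with a top score of 23.7. The scores at Mnx1, a motor neuron factor, were 291 in Parental −OHT and 169 in RING1B WT. At Hoxc9 they were 365 and 257, and at Hoxa2 113 and 116. At the other end, the highest Parental peak absent from all 3 +OHT libraries, also picked after the values were seen, lay at Pik3c2b, a lipid kinase gene, with a score of 81.3 and a width of 1712 bp (chr1:133045446-133047157). The next such peaks were at Plxna2 (66.1), G730013B05Rik (66.0), the Pcdhga10 and Pcdhgb7 promoters (64.7) and Kcnk1 (63.1).

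Tlx2, a homeobox gene of the enteric nervous system, carried the highest PCGF2 score of the RING1B I53S library, 435 over 3157 bp (chr6:83068453-83071609). The score at this locus was 273 in Parental −OHT and 260 in RING1B WT, and no peak was called in Parental +OHT. It ranked 261 among the Parental −OHT peaks and 108 among the RING1B WT peaks. RING1B at the locus scored 177 in Parental −OHT, 162 in RING1B WT and 57.4 in RING1B I53S, where it ranked 3 of 1287 peaks. CBX7 scored 499 in Parental −OHT and 141 in RING1B WT. It had no peak there in RING1B I53S, where the whole CBX7 list held only 32 peaks. The SUZ12 score at Tlx2 was 607 in Parental −OHT, 452 in RING1B WT and 70.7 in RING1B I53S. H2AK119ub1 had a peak there in all 4 conditions, with scores of 39.4 in Parental −OHT and 47.8 in Parental +OHT. In RING1B WT its score was 61.1 and in RING1B I53S 26.9. The paper reports global loss of this mark in Parental +OHT and RING1B I53S, so a called peak does not measure retained mark. So PCGF2 and RING1B ranked near the top of the RING1B I53S lists at Tlx2, while CBX7 was not called. Apart from Gm10800, which was called in all 4 libraries, the next RING1B I53S scores were at the Otx1 locus (212), Hoxb2 (153) and Neurod2 (134), all on chromosome 11.

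The 89 Parental +OHT peaks differed in kind. The highest, with a score of 587, was a 425 bp peak at the predicted gene Gm10800 on chromosome 2, followed by a pair of peaks on the mitochondrial chromosome (243 and 228) and a peak over Gm26917, Gm42418 and AY036118 on chromosome 17 (220). The Gm10800 peak was present in Parental −OHT (435), RING1B WT (196) and RING1B I53S (251) too. Of the 89 peaks, 20 overlapped a peak called in 4 input libraries of the series, which had no antibody. These inputs came from MTF2 knockout derivatives of the same lines and not from the populations of the PCGF2 ChIP. Of the 89 peaks 26 were present in all 4 PCGF2 libraries, and 18 in no other PCGF2 library. Promoters held 65.2% of them, against 83.6% in Parental −OHT, and intergenic sequence 21.3%, against 7.89%. Without regions on the input lists and the mitochondrial chromosome, an alternative chosen after seeing the data, the share of Parental −OHT peaks found again in Parental +OHT was 0.503%. Among the 77 RING1B I53S peaks outside the Parental −OHT set the highest scores at promoters, again read after seeing the values, were at Gm5608 (45.1), Zc3h7a (35.0) and Cenpu (31.5), and each of these loci also had a Parental +OHT peak.

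Chromosome 11 held 9.58% of the Parental −OHT peaks, 9.94% of the RING1B WT peaks, 19.3% of the RING1B I53S peaks and 25.8% of the Parental +OHT peaks. Of the 100 highest Parental −OHT peaks 33 lay on chromosome 11, and for the other 11 antibodies 26 to 93 of the 100 highest Parental −OHT peaks did. Within width classes, 0.709% of chromosome 11 loci of 800 to 1500 bp were held in RING1B I53S against 0.712% on other chromosomes. At 1.5 to 3 kb, 14.6% were held on chromosome 11 against 4.67% elsewhere, while in RING1B WT 87.1% were against 92.0%. At 3 to 5 kb the shares were 39.7% and 28.2%, and at 5 kb or more 78.4% and 64.0%. The part of the chromosome's own signal level in these shares was not tested. Without chromosome 11, an alternative chosen after seeing the data, 9.19% of Parental −OHT peaks were held in RING1B I53S.

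PCGF2 binding was extended over the 4 Hox clusters, whose genes specify position along the body axis. In Parental −OHT cells PCGF2 peaks covered 67.0% of the 115 kb Hoxa window, 54.1% of the 184 kb Hoxb window, 38.0% of the 126 kb Hoxc window and 65.5% of the 107 kb Hoxd window, each reaching 5 kb beyond its outer genes. In RING1B WT the covered shares were 57.8%, 50.5%, 33.2% and 52.8%. In RING1B I53S they were 3.67% at Hoxa, 13.2% at Hoxb, 0.410% at Hoxc and 7.79% at Hoxd, and in Parental +OHT no peak was called in any of them. The remainder in RING1B I53S was uneven. Hoxb lies on chromosome 11, where the shares of loci of 1.5 kb or more held in RING1B I53S were higher than elsewhere. The part of the chromosome in this unevenness was not tested. At Hoxb 15 peaks were left, with a top score of 153 against 553 in Parental −OHT, and 8 of 10 Hoxb genes kept a promoter peak. At Hoxc 1 peak of 515 bp was left, and 1 of 9 genes kept a promoter peak. For Hoxa 3 of 11 genes kept one, and for Hoxd 5 of 9.

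**Figure D3:**
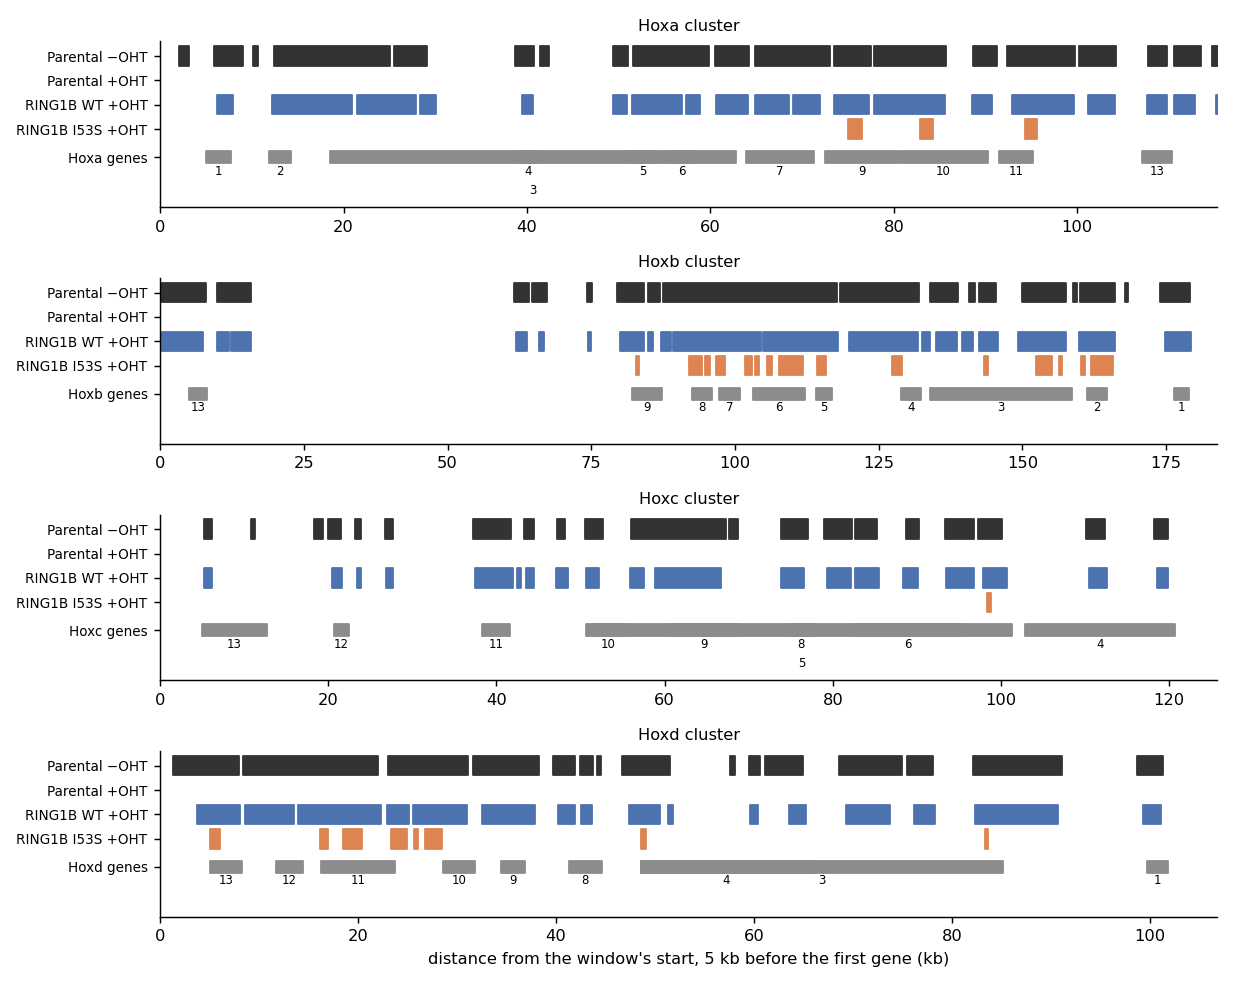
PCGF2 peaks along the Hoxa, Hoxb, Hoxc and Hoxd clusters in the 4 libraries, a row for each library, with genes as grey bars below, numbered by paralogue group. The horizontal axis is the distance in kb from the window's start, and the RING1B I53S row keeps short pieces that cover 13.2% of Hoxb and 0.410% of Hoxc.

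Other developmental families were counted by promoters with a PCGF2 peak within 2.5 kb of a start site. Of all 21924 protein-coding genes, 17.2% had such a peak in Parental −OHT, 12.7% in RING1B WT, 2.31% in RING1B I53S and 0.274% in Parental +OHT. All 12 genes of the LIM homeobox list were bound in Parental −OHT and in RING1B WT, and 9 in RING1B I53S. Its widest peak, at Lmx1b, measured 16957 bp. Of 9 Dlx and Msx genes, which pattern limbs and forebrain, all were bound in Parental −OHT and RING1B WT and 7 in RING1B I53S. Of 26 forkhead genes 22 were bound in Parental −OHT, 22 in RING1B WT and 17 in RING1B I53S, where Foxb1 kept a score of 94.5. Of 14 Nkx genes 13, 12 and 9 were bound in the same order, and of 9 Pax genes 9, 8 and 6. Of 17 T-box genes 12, 11 and 7 were bound, of 17 proneural and related bHLH genes 15, 14 and 8, of 6 Irx genes 6, 6 and 3, and of 6 Gata genes 5, 5 and 3. Gata3, a regulator of trophoblast, had a peak of 13450 bp in Parental −OHT and none at its promoter in RING1B I53S, and Gata1 had no promoter peak in Parental −OHT. Of 16 Sox genes 15, 15 and 5 were bound, and of 5 Zic genes 5, 3 and 2.

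Genes of secreted signals gave the following counts, and no test was made between the lists. All 19 Wnt ligand genes were bound in Parental −OHT, 18 in RING1B WT and 3 in RING1B I53S, among them Wnt5a (8264 bp in Parental −OHT, 2525 bp in RING1B I53S) and Wnt3a (6248 and 1269 bp). Of 9 BMP ligand genes 7, 7 and 2 were bound, and of 22 FGF genes 14, 14 and 3. Fgf9 was the widest of these and kept 5270 of 7416 bp. The Wnt7b peak of 7478 bp and the Bmp4 peak of 5877 bp were not called in RING1B I53S. Of 10 genes for D-type cyclins and CDK inhibitors, 7 were bound in Parental −OHT and 3 in each rescue line, with Ccnd2 the widest (8659 bp). The 3 genes were not the same in both lines. The gene bound in RING1B I53S and not in RING1B WT was also the 1 gene of the list bound in Parental +OHT.

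Genes of the Polycomb machinery were counted in the same way, beside 17.2% of all protein-coding genes bound in Parental −OHT. Among canonical PRC1 genes, Cbx2, Cbx8 and Bmi1 had a promoter peak in Parental −OHT and in RING1B WT. Cbx8 and Bmi1 also had one in RING1B I53S. The peak at Cbx2 was 2768 bp wide with a score of 51.6 in Parental −OHT and 20.2 in RING1B WT, and none was called in RING1B I53S. Pcgf2 itself had no promoter peak. Of 16 variant PRC1 genes 7 were bound in Parental −OHT, 5 in RING1B WT and 0 in RING1B I53S, the 7 being Pcgf5, Yaf2, Kdm2b, Bcor, Bcorl1, E2f6 and Auts2. Of 12 PRC2 genes Phf19 alone was bound, with a score of 127 in Parental −OHT. Of 18 pluripotency genes Esrrb, Prdm14 and Tbx3 were bound, and Esrrb, a nuclear receptor, kept a peak in RING1B I53S (154 in Parental −OHT, 141 in RING1B WT and 22.3 in RING1B I53S). Of 20 germline genes 4 were bound, and of 40 ribosomal protein genes 1, Rpl7.

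Most PCGF2 peaks lay at promoters. In Parental −OHT 83.6% of peaks overlapped a promoter, and so did 84.7% in RING1B WT and 85.2% in RING1B I53S. Peak centres lay within 500 bp of a start site in 54.6%, 53.3% and 44.1% of cases. Of the 521 Parental peaks held in RING1B I53S, 92.9% (90.4 to 94.8) were at promoters, against 82.5% (81.4 to 83.6) of the 4665 that were not. The part of width in this difference was not tested. Among peaks of 1.5 to 3 kb, the share held in RING1B I53S was 4.35% at 2 to 4 CpG per 100 bp, 6.19% at 4 to 6, 4.70% at 6 to 8 and 7.53% at 8 or more, with overlapping intervals. The letters CACGTG, an E-box read the same on both strands, occurred in the central 300 bp of 5.83% of Parental −OHT peaks, in 7.54% of those that PCGF6 also occupied and in 3.87% of those it did not. All RefSeq promoters of that length held it in 7.15%.

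In Parental −OHT cells the PCGF2 loci were shared with PRC2 and canonical PRC1. Of 5186 loci 99.1% overlapped a peak of SUZ12, a core PRC2 subunit, 99.4% one of MTF2, 99.4% one of JARID2 and 93.2% one of EPOP, which are accessory subunits. H3K27me3 overlapped 91.7%, CBX7 90.6%, RING1B 83.7% and H2AK119ub1 71.1%. The variant PRC1 subunits PCGF6 and RYBP overlapped 53.2% and 31.5%. In RING1B WT +OHT the shares stayed at 85.0% for H3K27me3, 93.7% for SUZ12 and 62.1% for RING1B. In RING1B I53S +OHT they were 38.7% for H3K27me3, 46.6% for SUZ12, 32.9% for H2AK119ub1, 4.13% for RING1B and 0.444% for CBX7. In Parental +OHT they were 62.9%, 72.6%, 52.2%, 0.482% and 0.887%. PCGF2, CBX7 and RING1B were thus rare at these loci in both conditions, while the marks and SUZ12 were called at more of them in Parental +OHT than in RING1B I53S. A called peak does not give the amount of a mark. By western blot the paper reports global H2AK119ub1 loss in both conditions. From spike-in scaled ChIP signal it reports complete loss at PRC1 target loci in RING1B I53S. It describes that scaling for signal tracks and not for peak calls, so the H2AK119ub1 shares do not measure retained mark. MTF2 and JARID2 had 2 libraries in each rescue line. The 2 RING1B I53S libraries of MTF2 gave 42.4% and 72.8%, and those of JARID2 17.8% and 7.13%, which shows how far lists of the same antibody and condition can lie apart. The Parental +OHT libraries of both antibodies share the title form of the second rescue libraries. They gave 78.1% for MTF2 and 23.5% for JARID2, and whether the libraries were made in separate sets was not tested.

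**Figure D4:**
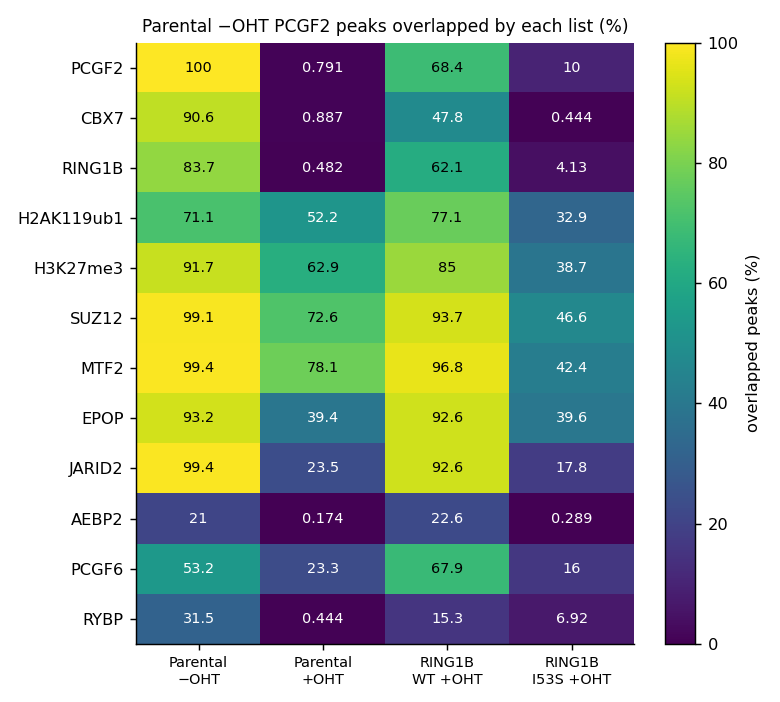
Share of the 5186 Parental −OHT PCGF2 peaks (percent, printed and coloured from 0 to 100) overlapped by a peak of each of 12 antibodies in the 4 conditions, with replicate 1 shown for MTF2 and JARID2. Replicate 2 of MTF2 and JARID2 gave 94.7% and 91.0% in RING1B WT and 72.8% and 7.13% in RING1B I53S. The RING1B I53S column reads 10.0% for PCGF2, 0.444% for CBX7 and 46.6% for SUZ12.

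Loci that held PCGF2 in RING1B I53S also had called peaks of the other Polycomb components more often in the same cells. H3K27me3 was called at 86.4% (83.2 to 89.1) of the 521 held loci and at 33.4% (32.0 to 34.7) of the 4665 lost ones, and SUZ12 at 92.7% and 41.5%. H2AK119ub1 was called at 73.5% and 28.4%, RING1B at 25.9% and 1.69%, and CBX7 at 4.22% and 0.0214%. The H2AK119ub1 shares, here and by width below, do not measure retained mark. JARID2 was called at 85.8% and 10.2% in the first library and at 53.6% and 1.95% in the second. Shares within width classes were computed for loci of 1.5 kb or more. Among loci of 5 kb or more, H3K27me3 was called at 97.0% of 198 held and 73.8% of the lost loci, H2AK119ub1 at 90.4% and 61.2%, RING1B at 39.4% and 3.88%, and JARID2 at 94.4% and 39.8%. Among loci of 1.5 to 3 kb, the H3K27me3 shares were 85.8% of 106 held and 40.8% of 1784 lost loci, and the JARID2 shares 83.0% and 13.8%. CBX7 was rare in all of them and was called at 0 held and 0 lost loci of 3 to 5 kb. The part of each library's depth in these shares was not tested.

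PCGF2 retention was compared between loci with and without the variant PRC1 subunit PCGF6. PCGF2 was held in RING1B I53S at 15.7% of the 2759 loci that PCGF6 also occupied in Parental −OHT and at 3.58% of the 2427 without it, and in RING1B WT at 77.5% and 58.1%. The loci with PCGF6 were wider, with a median of 2036 against 1256 bp. Within width classes the RING1B WT shares lay closer together, at 14.7% with and 15.7% without PCGF6 under 800 bp, 50.9% and 50.4% at 800 to 1500 bp, and 93.0% and 89.3% at 1.5 to 3 kb. The RING1B I53S shares were 3.10% and 2.78% under 800 bp, with overlapping intervals. Within 1.5 to 3 kb they were 7.37% (5.99 to 9.03) with PCGF6 and 2.93% (1.94 to 4.40) without. At 5 kb or more they were 69.8% (64.0 to 75.1) and 38.5% (24.9 to 54.1). Each antibody was also followed at its own Parental −OHT peaks. In RING1B WT 68.4% of PCGF2 peaks were held, beside 67.4% of RING1B, 45.9% of CBX7, 72.8% of PCGF6 and 31.6% of RYBP peaks. In RING1B I53S the shares were 10.0% for PCGF2, 5.72% for RING1B and 0.292% for CBX7, and 28.4% for PCGF6 and 18.2% for RYBP. In Parental +OHT the shares were 0.791% for PCGF2, 0.798% for CBX7, 1.17% for RYBP and 49.1% for PCGF6, and 76 of 5073 RING1B peaks were found again. Many PCGF6 peaks were thus called in cells from which RING1B had been deleted. PCGF2 and CBX7, both of canonical PRC1, had like shares in Parental +OHT, and in RING1B I53S the PCGF2 share was the higher of the 2.

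The 3941 RING1B peaks of RING1B WT +OHT cells served as RING1B target loci. PCGF2 peaks overlapped 87.2% of them in Parental −OHT, 81.8% in RING1B WT +OHT, 13.5% in RING1B I53S +OHT and 0.533% in Parental +OHT. The target loci with PCGF2 in RING1B I53S had a median width of 2796 bp and those without 1135 bp.

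RNA-seq of the 3 lines with and without OHT, 12 libraries with 2 replicates for each of 6 groups and 8140106 to 12743460 counted reads, showed how genes with PCGF2 at their promoters were expressed. Where nothing says that replicates came from separate cultures, p-values measure only the spread between these samples, and in bulk RNA fewer expressing cells and less RNA per cell cannot be told apart. The genes with a PCGF2 promoter peak in Parental −OHT numbered 5122, of which 3447 passed the filter on low counts and were tested. The 3762 protein-coding ones had a median level of 0.331 RPKM in Parental −OHT (read counts scaled to library size and to kb of exon), against 1.56 RPKM for 18162 without PCGF2, and 68.1% of them lay below 1 RPKM. Genes whose promoters kept PCGF2 in RING1B I53S were the lowest in Parental −OHT, with a median of 0.0465 RPKM over 468 genes, and those held in neither rescue line had a median of 1.08 RPKM over 989. In Parental +OHT the medians were 0.691 and 2.11 RPKM.

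With OHT, 1732 of the 3447 tested PCGF2 genes were called up in the Parental line and 24 down (edgeR quasi-likelihood test, Benjamini-Hochberg adjusted p under 0.05 with a log2 fold change of 1.5 or more in size). Over all 18154 genes tested, 15.1% were called up and 1.83% down. In RING1B I53S 1566 were called up and 12 down, against 12.8% and 1.04% of all genes, and in RING1B WT 156 up and 2 down, against 1.34% and 0.0386% of all genes, or 1.38% in either direction. The RING1B WT count depended on the libraries, being 11 without the −OHT replicate 2 and 21 without the +OHT replicate 2, and without each of these the 2 calls down were lost, while without the +OHT replicate 1 there was 1 call down. In RING1B I53S without the +OHT replicate 1 the calls down numbered 19. The median log2 fold change of the tested PCGF2 genes was 1.67 in Parental, 0.56 in RING1B WT and 1.46 in RING1B I53S, where all genes tested had 0.03, 0.02 and 0.01. A member that passed the filter only through its high group had to rise: 168 of the genes called up in Parental had no count in either −OHT library. With such genes set at the bound given by 3 counts over the group, the 3 medians were 1.67, 0.54 and 1.46, with 72 genes at or below that floor in both RING1B WT groups left out of the second. Of the genes called up in Parental, 1408 were called up in RING1B I53S as well, which is 81.3% of the Parental and 89.9% of the RING1B I53S calls.

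Fold changes of the tested genes are described by binding and by width, with the same limit of the filter. By binding, the median log2 fold change in Parental was 3.29 for 407 tested genes also bound in RING1B I53S, 1.90 for 2113 bound in RING1B WT and not in RING1B I53S, and 0.82 for 927 bound in neither. In RING1B I53S the 3 medians were 3.00, 1.72 and 0.76, and in RING1B WT 1.10, 0.61 and 0.36. With genes at 0 set at their bound, the first group's medians were 3.10, 2.88 and 0.95 in Parental, RING1B I53S and RING1B WT. Genes that kept a PCGF2 peak in RING1B I53S were called up there in 67.8% of those tested. By width of the Parental peak, 28.5% of tested genes under 800 bp and 72.7% of those at 5 kb or more were called up in Parental. RING1B I53S compared directly with RING1B WT, both +OHT and with the libraries used above, had 869 PCGF2 genes up and 7 down, beside 6.02% and 0.6% of all genes, or 6.62% in either direction. Without the RING1B WT +OHT replicate 1 the count up was 255. Without the RING1B I53S +OHT replicate 1 the count down was 12, and without its replicate 2 it was 4.

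**Figure D5:**
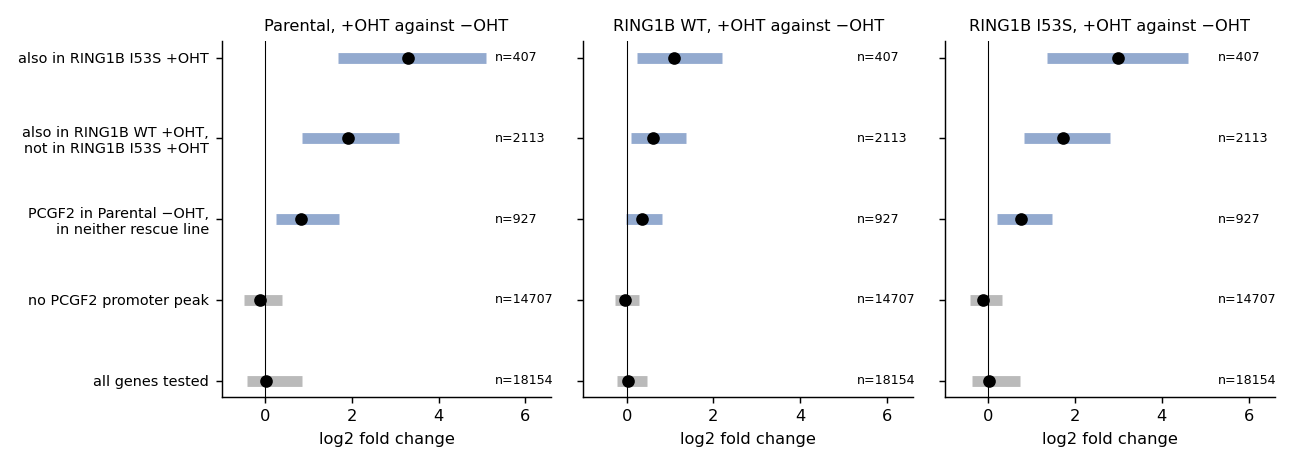
Log2 fold change of RNA, +OHT against −OHT, in each of the 3 lines, by where a PCGF2 promoter peak was called. Points are medians over tested genes, bars span the quartiles over genes and n is the number of genes. Genes also bound in RING1B I53S have medians of 3.29, 1.10 and 3.00 in the 3 lines.

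Named genes show the levels behind these counts, as read counts scaled to library size by TMM (CPM) in the 2 replicates. Gata3 was at 0.489 and 0.494 CPM in Parental −OHT and at 52.95 and 51.76 in Parental +OHT, at 1.60 and 1.21 rising to 4.931 and 7.597 in RING1B WT, and at 0.927 and 0.672 rising to 35.6 and 36.8 in RING1B I53S. Esx1, a homeobox gene of the placenta, went from 9.62 and 6.55 to 226 and 215 CPM in Parental, from 6.42 and 4.50 to 16.5 and 18.4 in RING1B WT and from 11.9 and 7.003 to 156 and 175 in RING1B I53S. Ccnd2, a D-type cyclin, went from 2.44 and 4.33 to 194 and 166 CPM in Parental, from 2.57 and 5.26 to 13.4 and 23.7 in RING1B WT and from 2.40 and 3.07 to 86.3 and 86.5 in RING1B I53S. In all 3 genes the +OHT libraries of each line lay above its −OHT libraries, and those of RING1B WT lay below those of the other lines. The log2 fold changes in Parental were 6.70 ± 0.36 (SE) for Gata3, 4.75 ± 0.27 for Esx1 and 5.78 ± 0.34 for Ccnd2. In RING1B I53S they were 5.46 ± 0.33, 4.12 ± 0.26 and 4.99 ± 0.33, and in RING1B WT 2.13 ± 0.34, 1.67 ± 0.27 and 2.23 ± 0.33. The edgeR Benjamini-Hochberg adjusted p was at most 0.00277 in each.

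Other genes with the lowest adjusted p among those called up were Crabp1, a retinoic acid binding protein (log2 fold change 2.96 ± 0.21 in Parental), Serpine2, a protease inhibitor (33.65 and 38.82 CPM without and 242.7 and 229 CPM with OHT in Parental), Col4a1, a basement membrane collagen (3.17 ± 0.24 in RING1B I53S), Adra2b, an adrenergic receptor (4.41 ± 0.34 in RING1B I53S), and, in RING1B WT, Id2 (2.37 ± 0.31), Krt7 (1.86 ± 0.25) and Nkx2-9 (2.69 ± 0.40). Of these only Krt7, an epithelial keratin, lacked a PCGF2 promoter peak in RING1B WT. At peaks described above, Otx1 went from 0.733 and 0.618 to 25.9 and 27.7 CPM in Parental and from 3.17 and 0.959 to 25.4 and 27.9 in RING1B I53S. Sox9 went from 0.326 and 0.124 to 19.5 and 22.3 CPM in Parental and from 0.154 and 0 to 14.1 and 17.1 in RING1B I53S, while in RING1B WT it was at 0.403 and 1.25 with OHT. Tlx2 was at 0.512 and 0.682 CPM in Parental +OHT and at 0.401 and 0.0861 in RING1B I53S +OHT, and was not tested, nor were Neurod2, Hoxb2, Hoxb8 and Sost. Pik3c2b, whose peak was lost in every +OHT library, had a log2 fold change of 0.78 ± 0.29 in Parental and 0.52 ± 0.29 in RING1B WT, below the threshold of 1.5.

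Tested against the Parental line by an edgeR interaction term, 174 PCGF2 genes responded to OHT with a lower fold change in RING1B WT and 5 with a higher one, beside 1.1% and 0.435% of all genes, or 1.54% in either direction.

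Few PCGF2 genes fell. Etv5, an ETS factor downstream of FGF signalling, was at 324 and 347 CPM in Parental −OHT and at 70.9 and 67.1 in Parental +OHT, and fell by 2.28 ± 0.18 on the log2 scale. It was at 327 and 303 CPM in RING1B WT +OHT and at 115 and 126 in RING1B I53S +OHT. Zic5, a zinc-finger factor, fell by 2.51 ± 0.28 in Parental, and Dnajc6 and Vim fell too. In RING1B I53S the genes with the lowest adjusted p among those called down included Etv5, Prdm14, Myc and Vax2os. The 2 calls down in RING1B WT were Ina, a neuronal filament gene (log2 fold change -1.60), and Spry4, an ERK feedback inhibitor (-2.74), both with a PCGF2 promoter peak in RING1B WT. In Parental their log2 fold changes were -0.37 and -0.24, with adjusted p of 0.347 and 0.729 from edgeR with Benjamini-Hochberg adjustment.

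By list, and beside 15.1% of all genes tested called up in Parental, 12.8% in RING1B I53S and 1.34% in RING1B WT, all 7 tested Hoxa, 7 Hoxb and 7 Hoxd genes and 5 of 8 Hoxc genes were called up in Parental. In RING1B I53S 6 Hoxa, 7 Hoxb, 7 Hoxd and 5 Hoxc genes were, and in RING1B WT 3 Hoxa, 1 Hoxb, 1 Hoxd and 0 Hoxc genes. Of 12 LIM genes 11 were called up in Parental, 11 in RING1B I53S and 1 in RING1B WT. Of 19 Wnt genes 16, 16 and 2 were, and of 15 tested Sox genes 9, 9 and 0. Genes without a count in either −OHT library passed the filter only through other groups and could only be higher with OHT. Among those called up in Parental they were 3 Hoxa, 2 Hoxb, 2 Hoxc, 2 Hoxd, 5 LIM, 5 Wnt and 2 Sox genes, so these counts are descriptions of the tested genes. The lists of pluripotency and ribosomal protein genes, few of which had PCGF2, had 0 genes called up. Beside 1.83%, 1.04% and 0.0386% of all genes called down in Parental, RING1B I53S and RING1B WT, 6, 4 and 0 of 18 pluripotency genes were, and of 40 ribosomal protein genes 0 in each line. Of 20 germline genes, 4 of them with PCGF2, 17 were called up in Parental, 15 in RING1B I53S and 9 in RING1B WT. Each of the 18 pluripotency genes was detected above 0.1 CPM in every group. Marker lists moved with OHT as well. The summed level of 18 pluripotency genes was 8043 to 9195 CPM in Parental −OHT and 4319 to 4327 in Parental +OHT, and that of 10 trophoblast markers 185 to 217 and 709 to 732. The sums of 10 fibroblast and 8 endoderm markers were 24.1 to 25.2 and 30.9 to 31.2 CPM in Parental −OHT and 81.7 to 86.1 and 75.6 to 85.6 in Parental +OHT. Below 0.1 CPM lay 5 of the fibroblast markers in each of these groups, and 3 and 0 of the endoderm markers. Not every marker rose, since Tfap2c of the trophoblast list had 1352 and 738 raw counts in Parental −OHT and 984 and 562 in Parental +OHT. Of the pluripotency, trophoblast, fibroblast and endoderm lists 3, 8, 2 and 7 genes had a PCGF2 promoter peak themselves, and the part of a change in cell makeup in the results was not tested.

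Pcgf2 RNA itself was at 50.8 and 47.2 CPM in Parental −OHT and at 28.9 and 37.6 in Parental +OHT, a log2 fold change of -0.56 ± 0.20 (edgeR, Benjamini-Hochberg adjusted p = 0.0345), below the threshold of 1.5. In RING1B WT it was at 52.6 and 50.6 CPM without and 54.2 and 42.5 with OHT (-0.09 ± 0.20), and in RING1B I53S at 50.1 and 47.1 without and 37.1 and 33.9 with OHT (-0.45 ± 0.20, adjusted p = 0.0983). The +OHT libraries lay below the −OHT libraries in Parental and in RING1B I53S and overlapped them in RING1B WT. These RNA values do not give the level of PCGF2 protein, which the paper reports as destabilized on loss of RING1B and restored by either form. Rnf2, the gene of RING1B, was at 198 and 257 CPM in Parental −OHT and 144 and 167 in Parental +OHT, but counts over the whole gene do not resolve the floxed exons or the transgene and give no check of the deletion. Cbx8, with PCGF2 at its promoter, rose by 4.55 ± 0.45 in Parental and 2.57 ± 0.39 in RING1B I53S (log2 scale, edgeR adjusted p at most 6.68e-05). Phc1 had no PCGF2 promoter peak and fell by 1.86 ± 0.18 in Parental, while Phc2 rose by 1.78 ± 0.27 there. Cbx7, at 222 and 196 CPM in Parental −OHT, was at 108 and 114 in Parental +OHT, a log2 fold change of -0.91 ± 0.18.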

How the data were processed

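PCGF2 peak lists of 4 conditions, lists of 11 other antibodies and of 4 inputs from MTF2 knockout lines, and RNA-seq of 12 libraries were analysed. Per the methods and the submitters' processing notes, the authors aligned ChIP reads to mm10 with Bowtie 1.2.2, took out duplicates with samblaster, and ran MACS2 2.1.1 on single libraries at p 1e-10. The deposited score is the −log10 p-value of each peak. The authors aligned RNA reads with STAR 2.7, likewise without duplicates, and deposited raw counts per gene name from featureCounts, without strand. Deposited tables of their own comparisons (log2 fold changes and adjusted p-values) were not used. Peak sets were compared with Python 3.11.15, numpy 2.4.6 and scipy 1.17.1 at an overlap of at least 1 bp, and promoters reached 2.5 kb to either side of start sites of GENCODE M21. Sequences were read from GRCm38, and promoter sequences are RefSeq's. Counts were tested with edgeR 4.0.16 in R 4.3.3 (TMM, filterByExpr, 18154 gene names tested, quasi-likelihood F-test, Benjamini-Hochberg adjustment over all genes), a fit also checked on simulated data. Depth sets the precision: it is unknown for the peak lists, and the biological coefficient of variation of the counts was 0.181.

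Genes named were those at the 10 widest and 10 highest Parental −OHT peaks and the 5 highest +OHT peaks, the canonical PRC1 genes, 5 per line and direction ranked by adjusted p, and up to 4 per list. Other peaks are named as chosen after seeing the data. Alternatives were other scores, overlaps, promoter widths and gene types, RLE scaling, DESeq2 1.42.0, no filter, a replicate block and each library left out. The members and lists were chosen with earlier results of these data known. Some items that the naming rule covers are not reported here.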

Additional observations from a re-analysis of the deposited data

Results flagged for a closer look

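Among the named genes with a PCGF2 promoter peak, the 15 given here had an OHT effect in RING1B WT that differed from that in Parental by the interaction term of the edgeR fit (Benjamini-Hochberg adjusted p under 0.05, log2 difference of at least 1.5). The difference, RING1B WT minus Parental, was -5.50 for Sox9, -4.57 for Gata3, -3.89 for Nkx2-9, -3.54 for Ccnd2, -3.08 for Esx1, -3.03 for Otx1, -2.98 for Cbx8, -2.58 for Adra2b, -2.48 for Fzd2, -1.86 for Id2, -1.83 for Col4a1 and -1.72 for Crabp1, all of which rose less in RING1B WT. It was 1.99 for Etv5, 1.79 for Dnajc6 and 1.70 for Zic5, which fell less. The adjusted p-values ranged from 0.0001065 for Gata3 to 0.02974 for Otx1. Over all 3447 tested PCGF2 genes 174 were called with a smaller and 5 with a larger log2 fold change in RING1B WT than in Parental, where 1.1% and 0.435% of all genes tested were. For RING1B I53S against Parental the same edgeR test called 0 genes, with 488 of 18154 at an unadjusted p under 0.05. Both differences share the Parental libraries, and no other tool was run on them.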

How the results depend on the processing

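Of the values recomputed for the 4 peak lists, 20 moved by less than their 95% interval or by less than 1.5-fold for counts, and 27 by more. With scores of at least 20, 247 RING1B I53S and 27 Parental +OHT peaks were left, and the shares of Parental −OHT peaks found again were 5.22% and 0.475%. With at least 50% of the peak covered they were 62.4% in RING1B WT and 2.39% in RING1B I53S, and over the 1000 Parental −OHT peaks with the highest score 100% and 42.6%. Without input regions and the mitochondrial chromosome the Parental +OHT share was 0.503%, and without chromosome 11 the RING1B I53S share 9.19%, both alternatives added after seeing the data. At RING1B target loci, scores of at least 20 gave 83.5% in Parental −OHT, 0.203% in Parental +OHT, 68.6% in RING1B WT and 5.13% in RING1B I53S, and 50% coverage gave 0.330%, 80.1% and 6.17% in the last 3. Promoters of 1 kb held 79.8% of Parental −OHT, 80.2% of RING1B WT and 76.4% of RING1B I53S peaks. Protein-coding promoters held 77.1% of Parental −OHT, 51.7% of Parental +OHT, 78.6% of RING1B WT and 79.3% of RING1B I53S peaks, and peaks with scores of at least 20 lay at promoters in 87.0%, 77.8% and 87.4% of Parental −OHT, Parental +OHT and RING1B WT. The order of the 4 libraries in peak number and in share found again was kept in all of these. Without the filter on low counts 279 PCGF2 genes were called up and 4 down in RING1B WT. Leaving out each library in turn gave 11 to 195 called up and 0 to 2 called down in RING1B WT, 10 to 19 called down in RING1B I53S, and 255 to 879 called up and 4 to 12 called down in RING1B I53S against RING1B WT. For single genes, the call was lost for Etv5 in RING1B I53S and for Esx1, Ina and Spry4 in RING1B WT when some libraries were left out. Over RNA and peak results together 616 values stayed on their side, 38 moved and 9 lost a call, and none changed direction.

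The replicate numbers are shared between +OHT and −OHT groups. With the replicate number as a block, 1773 PCGF2 genes were called up and 26 down in Parental, 174 and 2 in RING1B WT, 1600 and 14 in RING1B I53S, and 936 and 8 in RING1B I53S against RING1B WT, and the log2 fold change of Pcgf2 was -0.56, -0.09 and -0.45. With 2 pairs a line, deviations of same-numbered samples correlated at 0.101, 0.0627 and 0.198, and the numbers were taken as names only.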

Other observations

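The peak numbers in the deposited names run higher than the peaks listed, up to 6107 in Parental −OHT, 222 in Parental +OHT, 4611 in RING1B WT and 1206 in RING1B I53S, so each list holds a subset of the numbered calls. Both mitochondrial peaks were listed in Parental −OHT, Parental +OHT and RING1B WT, and 0 in RING1B I53S. At the 2759 PCGF2 loci with PCGF6 in Parental −OHT, PCGF6 itself was held at 94.0% in RING1B WT, 41.9% in Parental +OHT and 29.5% in RING1B I53S.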
